A study of Mus musculus with 2 samples.

Results

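The cytosolic ribosomal protein genes are the genes for the proteins of the large and small subunits of the ribosome that translates nuclear-encoded messages. They were taken as all gene symbols of the count tables that begin with Rpl or Rps followed by a digit, together with Rplp0, Rplp1, Rplp2 and Rpsa, without the Rps6k kinases, Rps19bp1 and names marked as pseudogenes. This gave 85 of 32285 genes, 52 of the large and 33 of the small subunit, counting tissue-restricted and retrotransposed paralogs. All 85 identifiers were found in the GENCODE vM21 annotation of the GRCm38 mouse genome.

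Single nuclei were sequenced from hippocampi of C57BL/6J mice aged 6 weeks that had received an adeno-associated virus (AAV) in both lateral ventricles on the day of birth. In the AAV-TAU group the virus carried full-length 2N4R wild-type human tau. In the AAV-STOP group it carried human MAPT (the tau gene) interrupted near its beginning by a stop codon, so that no tau protein is made. By the labels both groups had the injection, a virus and a human MAPT construct, and what the labels give does not name the promoter or the cells that took up the virus. Each group is a single library made from the tissue of 3 mice together, so the spread between mice is not known. No comparison below has a test, and all intervals are exact 95% intervals that cover counting error only.

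Ribosomal protein messages are among the most abundant of a growing cell, and their products are assembled on ribosomal RNA in the nucleolus in equal numbers for most of them. In mammals many of these messages begin with a run of pyrimidines, the terminal oligopyrimidine tract, through which mTOR signalling sets how actively they are translated. In a nuclear preparation the messages counted are those in the nucleus and any cytoplasmic RNA that stays attached or free in the droplet.

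The starts of these genes are shown because the pyrimidine run is the feature the family is known for. The RefSeq promoter table (GRCm38.p6, 250 bases before to 50 after each annotated start) held 65 of the 85 genes. A run of 5 or more C or T that begins with a C within 5 bases of an annotated start was present in 30 of the 65 (46.2%), against 21.2% of all 27025 genes in the table. The letters CCGGAAG, bound by ETS factors, were found on either strand in 26 of the 65 (40.0%), against 9.93% of all genes. The letters AAGATGG, bound by YY1, were found on either strand in 10 of the 65 (15.4%), against 7.28% of all genes. The 30 bases around the start, with the pyrimidine run in capitals where there is one, are given for Rps6 (chr4:86857353-86857382, minus strand), Rpl28 (chr7:4792950-4792979, plus strand), Rpl19 (chr11:98026695-98026724, plus strand), Rpl7l1 (chr17:46782642-46782671, minus strand) and Rpl10 (chrX:74270801-74270830, plus strand).
Rps6: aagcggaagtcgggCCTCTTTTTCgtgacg
Rpl28: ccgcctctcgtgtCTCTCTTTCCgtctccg
Rpl19: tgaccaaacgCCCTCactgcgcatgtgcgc
Rpl7l1: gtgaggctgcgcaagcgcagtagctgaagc
Rpl10: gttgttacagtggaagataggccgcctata
The ETS letters are in capitals in windows of Rps3a1 (chr3:86142659-86142688, minus strand) and Rps27l (chr9:66946084-66946113, plus strand).
Rps3a1: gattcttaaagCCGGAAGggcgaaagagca
Rps27l: ccgcctctatcCCGGAAGttgctgaggggc
For the difference between the libraries described below, the median log2 ratio over all nuclei was 0.41 in the 30 measured genes with the run. It was 0.40 in the 33 without it, and the ranges overlapped. A run that begins further from an annotated start was not counted. The split thus cannot show whether the tract itself moves with the ratio.

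The AAV-TAU library held 19596 barcodes with 109428807 UMIs (unique molecular identifiers, each counted once per captured RNA molecule), and the AAV-STOP library held 20265 barcodes with 130252240 UMIs. The libraries shared 116 barcodes. The smallest deposited barcode had 1633 UMIs in AAV-TAU and 1973 in AAV-STOP. After 1668 AAV-TAU and 2396 AAV-STOP barcodes had been marked as doublets, 17926 AAV-TAU and 17865 AAV-STOP nuclei were kept. Clustering gave 52 groups of nuclei, marker genes put a name to 24 of them, and 12 classes had at least 100 nuclei in both libraries. Each cluster of these classes had 6 to 11 markers of its type raised, and the microglia-like class also carried markers of border macrophages. No class was named for 23.2% of AAV-TAU and 22.0% of AAV-STOP nuclei. No ribosomal protein gene was among the 3000 variable genes used for clustering. Human tau is not in the gene list, so the vector could not be checked in either library.

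Ribosomal protein transcripts made up a small share of nuclear RNA in every class, highest in microglia-like and lowest in CA3-like nuclei. Summed over the 85 genes, they reached 7483 CPM (UMIs per 1000000 UMIs of the class) in microglia-like nuclei of AAV-TAU (interval 7331 to 7638) and 5465 CPM in those of AAV-STOP (5270 to 5666). CA3-like pyramidal neurons had 2606 CPM in AAV-TAU (2569 to 2642) and 2032 CPM in AAV-STOP (2000 to 2064). The range over classes was 2.87-fold in AAV-TAU and 2.69-fold in AAV-STOP. The order was nearly the same in both libraries: microglia-like nuclei stood first, then the Cajal-Retzius-like, oligodendrocyte-like and immature neuron-like classes in positions that differed between the libraries, with astrocyte-like nuclei at rank 4 in both, then oligodendrocyte precursor-like, newly formed oligodendrocyte-like, dentate granule-like, inhibitory neuron-like, subicular or cortical excitatory-like, CA1-like and CA3-like nuclei in both.

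Neighbours in this order often lay within counting error. In AAV-TAU the intervals of Cajal-Retzius-like (5483 to 5939 CPM), oligodendrocyte-like (5491 to 5616 CPM), astrocyte-like (5398 to 5589 CPM) and immature neuron-like nuclei (5342 to 5605 CPM) overlapped. In AAV-STOP the immature neuron-like (4280 to 4495 CPM) and Cajal-Retzius-like (4006 to 4454 CPM) intervals overlapped, and so did those of Cajal-Retzius-like and astrocyte-like nuclei (4034 to 4232 CPM). Dentate granule-like neurons were at 3861 CPM in AAV-TAU and 2960 CPM in AAV-STOP. CA1-like neurons were at 2926 CPM in AAV-TAU and 2234 CPM in AAV-STOP, and inhibitory neuron-like nuclei at 3324 CPM in AAV-TAU and 2506 CPM in AAV-STOP.

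The order by CPM was close to the reverse of the order by depth. Median UMIs per nucleus ran from 1941 in microglia-like to 9404 in CA3-like nuclei of AAV-TAU, and from 2274 to 9867 in the same classes of AAV-STOP. Counted per nucleus and not as CPM, CA3-like nuclei had the most ribosomal protein UMIs, 25.0 in AAV-TAU and 21.1 in AAV-STOP. Microglia-like nuclei had 15.4 in AAV-TAU and 13.6 in AAV-STOP, and oligodendrocyte-like nuclei 14.6 in AAV-TAU and 10.9 in AAV-STOP. Over the 12 classes the UMIs per nucleus differed 1.73-fold in AAV-TAU and 1.94-fold in AAV-STOP, while median depth differed 4.84-fold and 4.34-fold. Which of the scales stands for ribosomal protein message per cell was not tested.

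**Figure D1:**
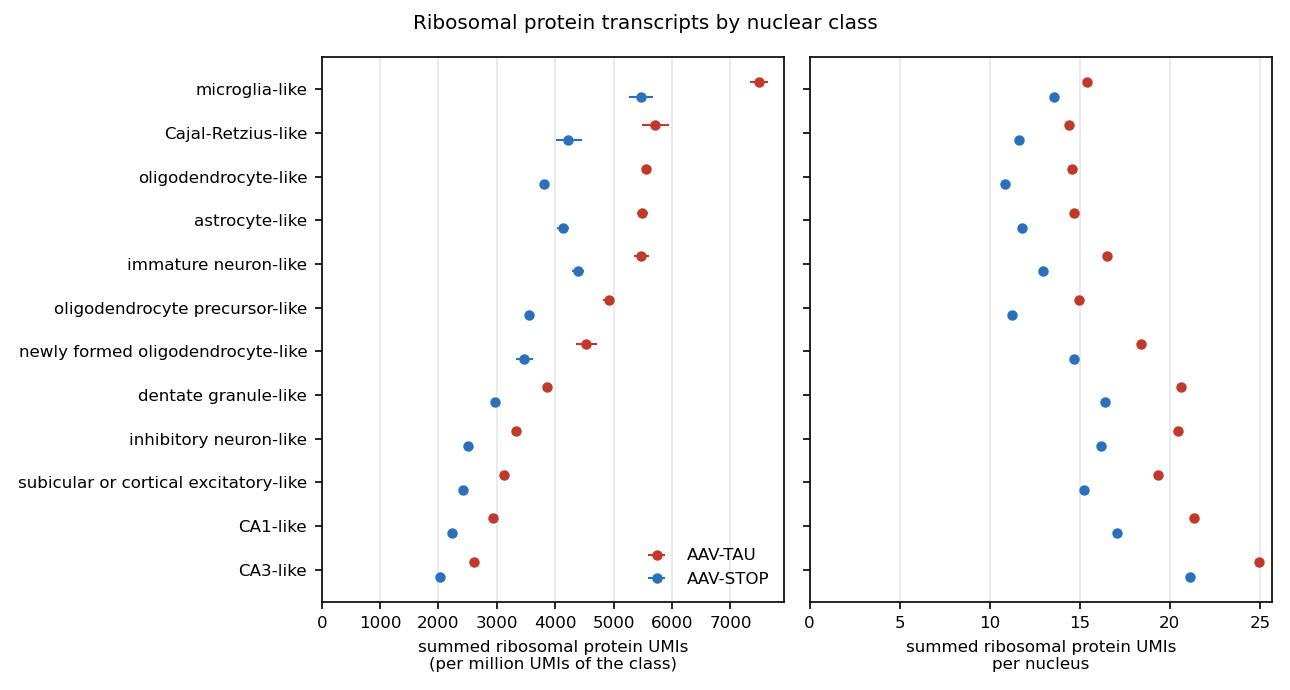
Summed UMIs of the 85 ribosomal protein genes in 12 nuclear classes, AAV-TAU in red above AAV-STOP in blue, as CPM of the class (left, bars are exact 95% Poisson intervals) and per nucleus (right). The AAV-TAU point lies to the right of the AAV-STOP point in every class on both scales, and the order of classes differs between the scales.

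In every class the summed level of ribosomal protein transcripts was higher in AAV-TAU than in AAV-STOP. Over all kept nuclei the sum was 3686 CPM in AAV-TAU and 2687 CPM in AAV-STOP, a ratio of 1.37 (interval 1.37 to 1.38). Values over all nuclei, for the sum and for single genes, also carry the make-up of the libraries, which differed: microglia-like nuclei numbered 593 in AAV-TAU and 217 in AAV-STOP, astrocyte-like nuclei 869 in AAV-TAU and 576 in AAV-STOP, and granule-like nuclei 4266 in AAV-TAU and 5189 in AAV-STOP. The libraries also differed in shallow nuclei. Over all nuclei 1657 in AAV-TAU and 94 in AAV-STOP had 1500 to 2000 UMIs, and of the microglia-like nuclei 344 in AAV-TAU and 18 in AAV-STOP. At that depth the sum over all nuclei was 8929 CPM in AAV-TAU and 5853 CPM in AAV-STOP, the highest of the depth ranges. The part of this difference in depth was not tested. The ratio over all nuclei was above that of 10 of the 12 classes. The ratio was 1.46 in oligodendrocyte-like nuclei (1.43 to 1.49), the myelin-forming cells, where AAV-TAU had 5553 CPM and AAV-STOP 3803 CPM. It was 1.38 in their precursors (1.34 to 1.43) and 1.37 in microglia-like nuclei (1.31 to 1.43). Astrocyte-like nuclei had a ratio of 1.33 (1.29 to 1.37), with 5493 CPM in AAV-TAU and 4132 CPM in AAV-STOP. The counting interval of oligodendrocyte-like nuclei lay above those of the other classes except the Cajal-Retzius-like one, which it overlapped.

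Among neurons the ratios were close together. Dentate granule-like neurons had a ratio of 1.30 (interval 1.29 to 1.32), CA1-like neurons 1.31 (1.29 to 1.33) and CA3-like neurons 1.28 (1.26 to 1.31). Subicular or cortical excitatory-like neurons had a ratio of 1.29 (1.253 to 1.33), inhibitory neuron-like nuclei 1.33 (1.30 to 1.35), Cajal-Retzius-like nuclei 1.35 (1.26 to 1.44) and immature neuron-like nuclei 1.247 (1.21 to 1.29). Newly formed oligodendrocyte-like nuclei, with 129 nuclei in AAV-TAU and 150 in AAV-STOP, had a ratio of 1.31 (1.23 to 1.39). The clusters within a class showed the same direction: the 3 granule-like clusters had ratios of 1.31, 1.28 and 1.32, and the 2 oligodendrocyte-like clusters 1.45 and 1.31. The number of UMIs per nucleus was also higher in AAV-TAU in all 12 classes, for example 20.6 in AAV-TAU and 16.4 in AAV-STOP granule-like nuclei, although AAV-TAU nuclei had lower median depth in all 12.

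Gene by gene, a gene was counted as measured with 100 or more UMIs over both libraries of a class, and as past the fold when its log2 ratio of AAV-TAU over AAV-STOP, taken after adding 5 CPM to each, reached 0.32. Over all nuclei 68 of 83 measured ribosomal protein genes were past the fold upward, where 3.71% of all 17246 measured genes were. None was past it downward, where 0.087% of all genes were. Adding 5 CPM shrinks the log2 ratio of genes of low CPM. Rps27rt, at 1.89 CPM in AAV-TAU and 1.06 CPM in AAV-STOP, had a ratio of 1.79 (1.40 to 2.28) but a log2 ratio of 0.19. Genes of such low level count among all measured genes. The shares and medians of all genes, here and below, are thus not matched to the family for level. The 2 genes under the floor were Rpl10l and Rpl39l, paralogs known from testis: Rpl10l had no UMI in either library, which by the rule of 3 counts allows up to 0.0314 CPM in AAV-TAU and 0.0278 CPM in AAV-STOP, and Rpl39l had 2 UMIs in AAV-TAU and 1 in AAV-STOP. Within classes Rpl3l and Rps27rt also stayed under the floor, so 81 genes were measured in 1 class or more.

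In dentate granule-like neurons 52 of 81 measured genes were past the fold upward, against 4.21% of all measured genes (0.0771% downward). In CA1-like neurons 43 of 81 were, against 4.64% of all genes (0.146% downward). In CA3-like neurons 41 of 80 were, against 6.77% of all genes (0.963% downward). Subicular or cortical excitatory-like neurons had 37 of 75, against 9.43% of all genes (1.98% downward). Inhibitory neuron-like nuclei had 53 of 81, against 6.21% of all genes (0.833% downward). Immature neuron-like nuclei had 33 of 65, against 11.9% of all genes (7.02% downward).

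Among glia, oligodendrocyte-like nuclei had the highest share past the fold upward, 73 of 81 genes, against 13.5% of all measured genes (2.84% downward). Their precursors had 51 of 70, against 13.3% of all genes (4.79% downward). Astrocyte-like nuclei had 44 of 76, against 14.4% of all genes (7.14% downward). Microglia-like nuclei had 44 of 62, against 17.2% of all genes (12.5% downward). In the 2 smallest classes nearly no ribosomal protein gene reached the floor: Cajal-Retzius-like nuclei had 1 of 2 past the fold (13.4% of all genes upward, 14.1% downward), and newly formed oligodendrocyte-like nuclei 2 of 3 (10.7% upward, 10.6% downward). In none of the 12 classes was a ribosomal protein gene past the fold downward at this floor. With a floor of 20 UMIs, 6 of 78 were in Cajal-Retzius-like, 5 of 80 in newly formed oligodendrocyte-like and 1 of 81 in immature neuron-like nuclei. The share of all genes at that floor is not given here.

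Over the 757 pairs of a gene and a class in which the gene was measured, the ratio of CPM was above 1 in 745, and its counting interval lay wholly above 1 in 518 and wholly below 1 in 0. For 70 of the 81 genes the ratio was above 1 in every class in which the gene was measured. The median ratio of the measured genes was 1.32 in granule-like, 1.31 in CA1-like, 1.45 in oligodendrocyte-like and 1.34 in microglia-like nuclei. The fold was thus small and shared, and few genes passed a 1.5-fold limit: 1 over all nuclei, 0 in granule-like and CA1-like, 18 in oligodendrocyte-like and 13 in microglia-like nuclei. The share of all measured genes past that limit was 0.191% over all nuclei, 0.185% in granule-like, 0.249% in CA1-like, 2.70% in oligodendrocyte-like and 4.66% in microglia-like nuclei. On another scaling, by the median of the gene ratios, 43 of 83 genes were past the fold over all nuclei and 25 of 81 in granule-like neurons, while 1.86% and 2.08% of all genes were.

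**Figure D2:**
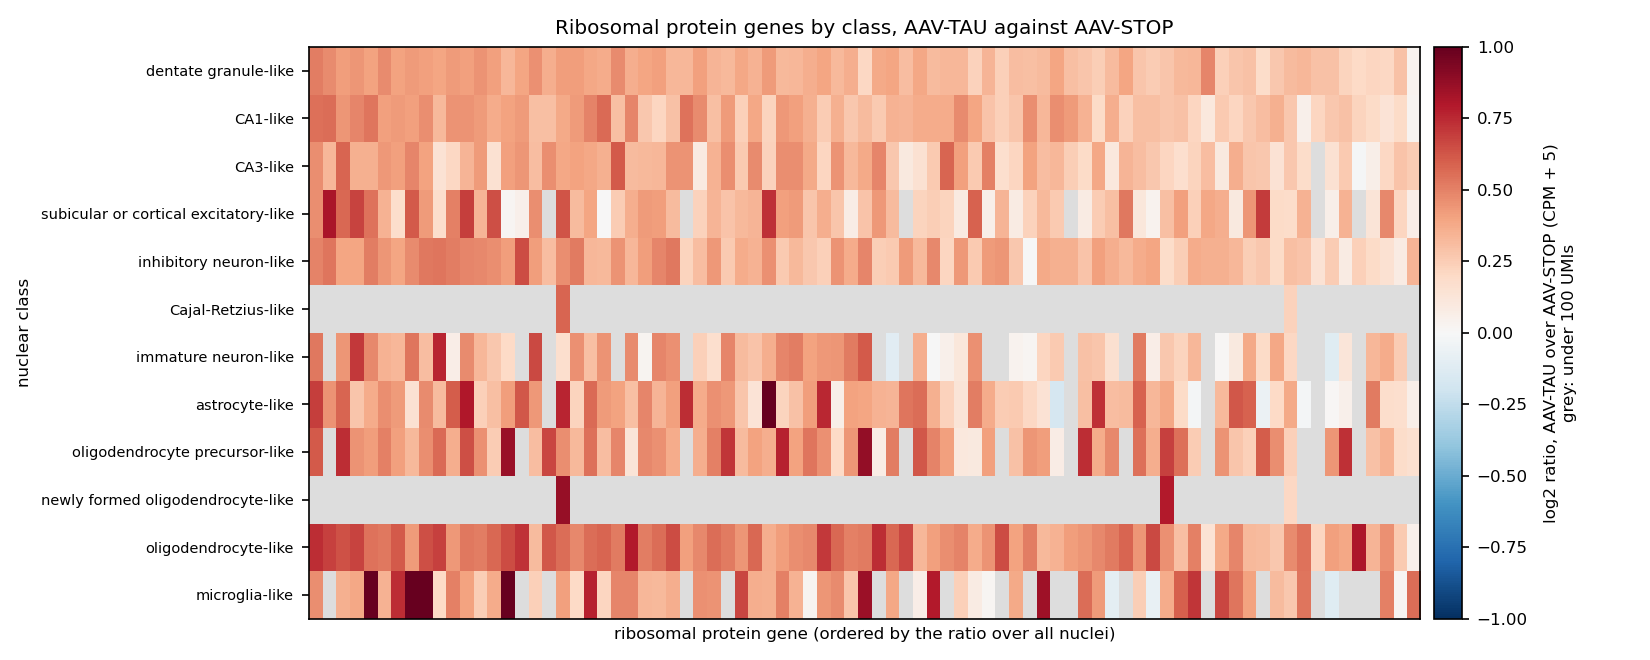
Log2 ratio of AAV-TAU over AAV-STOP for the 81 ribosomal protein genes measured in at least 1 class (columns, ordered by their ratio over all nuclei) in 12 classes (rows), with red for higher in AAV-TAU, blue for lower and grey for under 100 UMIs over both libraries. Nearly all measured fields are red, no gene with 100 or more UMIs is past the fold downward, and in oligodendrocyte-like nuclei all 81 genes have a ratio above 1. The Cajal-Retzius-like and newly formed oligodendrocyte-like rows are almost wholly grey.

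Both subunits took part. Over all nuclei the 52 large-subunit genes summed to 2257 CPM in AAV-TAU and 1643 CPM in AAV-STOP, a ratio of 1.37 (interval 1.37 to 1.38), and the 33 small-subunit genes to 1429 CPM in AAV-TAU and 1044 CPM in AAV-STOP, also 1.37 (1.36 to 1.38). In granule-like neurons the ratios were 1.30 (1.29 to 1.32) for the large and 1.31 (1.29 to 1.33) for the small subunit. In oligodendrocyte-like nuclei they were 1.49 (1.45 to 1.52) and 1.42 (1.38 to 1.46), and in astrocyte-like nuclei 1.37 (1.32 to 1.43) and 1.27 (1.21 to 1.33). In oligodendrocyte-like and astrocyte-like nuclei the large-subunit value was the higher, with intervals that overlapped. In precursor-like nuclei the large subunit had 1.38 and the small subunit 1.39, and in microglia-like nuclei 1.36 and 1.39, so no subunit led in all glia.

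The stalk of the large subunit, which recruits the elongation factors, is built of Rplp0 and of dimers of Rplp1 and Rplp2. Rplp1 was the ribosomal protein gene with the highest level per kilobase of annotated exon in both libraries, at 154 CPM per kilobase in AAV-TAU and 110.2 in AAV-STOP. Over all nuclei it had 76.9 CPM in AAV-TAU (interval 75.2 to 78.7) and 55.0 CPM in AAV-STOP (53.6 to 56.4). Rplp2 had 64.3 CPM in AAV-TAU and 44.2 CPM in AAV-STOP, and Rplp0 16.7 CPM in AAV-TAU and 11.9 CPM in AAV-STOP. Their log2 ratios were 0.45, 0.49 and 0.36, all past the fold. In granule-like neurons Rplp1 stood at 81.1 CPM in AAV-TAU and 60.5 CPM in AAV-STOP, and in immature neuron-like nuclei at 106 CPM in AAV-TAU and 104 CPM in AAV-STOP, a difference within counting error (ratio 1.02, 0.801 to 1.30).

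Other members with known roles of their own behaved like the family. Rps6, the small-subunit protein phosphorylated by S6 kinase (chromosome 4, 86854660 to 86857412, minus strand), had 30.8 CPM in AAV-TAU and 21.6 CPM in AAV-STOP over all nuclei, a ratio of 1.43 (interval 1.35 to 1.51). Its ratio was 1.31 in granule-like neurons (1.18 to 1.45), 1.44 in CA1-like neurons (1.23 to 1.68) and 1.77 in oligodendrocyte precursor-like nuclei (1.24 to 2.54). Rps27a, made as a fusion with ubiquitin, had 44.6 CPM in AAV-TAU and 31.6 CPM in AAV-STOP, a ratio of 1.41 (1.35 to 1.48), but 27.5 CPM in AAV-TAU and 25.4 CPM in AAV-STOP in CA3-like neurons, where the interval of its ratio reached below 1 (0.883 to 1.32). Rpsa, a small-subunit protein also known as the laminin receptor, had 55.9 CPM in AAV-TAU and 41.0 CPM in AAV-STOP, a ratio of 1.36 (1.31 to 1.42). In microglia-like nuclei Rpsa had 107 CPM in AAV-TAU and 102 CPM in AAV-STOP (ratio 1.05, 0.762 to 1.47).

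The members differed in the size of the ratio. Rpl28, a large-subunit protein (chromosome 7, 4792874 to 4795066, plus strand), had the highest log2 ratio over all nuclei, 0.61, with 35.5 CPM in AAV-TAU and 21.6 CPM in AAV-STOP (ratio 1.65, interval 1.56 to 1.74). It was past the fold in all 10 classes where it was measured. Rpl36, also of the large subunit, followed with a log2 ratio of 0.58, at 27.4 CPM in AAV-TAU and 16.7 CPM in AAV-STOP, and was past the fold in all 7 classes where it was measured. Rpl36 was among the 5 highest genes in 4 of the 10 classes that had enough measured genes to name 10, more often than any other gene. Rpl21, with 69.3 CPM in AAV-TAU and 46.4 CPM in AAV-STOP, was also past the fold in all 10 classes where it was measured.

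At the low end stood Rpl10, an X-linked large-subunit gene (chromosome X, 74270812 to 74273135, plus strand) whose protein joins the subunit late in assembly. Rpl10 had 24.5 CPM in AAV-TAU and 21.3 CPM in AAV-STOP over all nuclei, a log2 ratio of 0.16 (ratio 1.15, interval 1.08 to 1.22). It was the lowest of the measured genes in granule-like neurons (25.3 CPM in AAV-TAU and 24.5 CPM in AAV-STOP), CA1-like neurons (18.9 CPM in AAV-TAU and 18.5 CPM in AAV-STOP) and oligodendrocyte-like nuclei (34.2 CPM in AAV-TAU and 32.8 CPM in AAV-STOP), with counting intervals that included 1 in all 3. The interval of Rpl10 in granule-like neurons, 0.923 to 1.15, lay below that of the summed family, 1.29 to 1.32. Rpl10 was picked as the lowest gene of that class, so this distance is a description only. Rpl10 was not low everywhere: its ratio was 1.34 in inhibitory neuron-like nuclei (1.09 to 1.65).

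Rpl5, which with Rpl11 carries the ribosomal RNA of the large subunit's central protuberance and can bind Mdm2, was among the 5 lowest genes in 4 of the 10 classes. Rpl5 had 72.4 CPM in AAV-TAU and 58.3 CPM in AAV-STOP over all nuclei (ratio 1.24, interval 1.20 to 1.29). In immature neuron-like nuclei Rpl5 had 93.9 CPM in AAV-TAU and 103 CPM in AAV-STOP (ratio 0.914, 0.711 to 1.17), and in microglia-like nuclei 116 CPM in AAV-TAU and 126 CPM in AAV-STOP (0.916, 0.681 to 1.24). Rpl22, a large-subunit protein that also binds RNA outside the ribosome, was among the 5 lowest in 3 classes, all neuronal, with 42.0 CPM in AAV-TAU and 35.0 CPM in AAV-STOP over all nuclei (1.20, 1.15 to 1.26). In oligodendrocyte-like nuclei Rpl22 had a ratio of 1.42 (1.18 to 1.73).

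In the classes with fewer UMIs the extreme members had wide intervals. Rps3, at the entry of the message channel of the small subunit, had the highest ratio in microglia-like nuclei, with 95.1 CPM in AAV-TAU and 39.0 CPM in AAV-STOP (ratio 2.44, interval 1.52 to 4.09). Rpl38, a small protein of the large subunit, was highest in astrocyte-like nuclei, with 60.8 CPM in AAV-TAU and 28.0 CPM in AAV-STOP (2.17, 1.54 to 3.09). Rps19, of the small subunit, was the lowest there, with 35.4 CPM in AAV-TAU and 40.2 CPM in AAV-STOP (0.879, 0.628 to 1.23). Rpl35 was highest in oligodendrocyte-like nuclei, with 23.7 CPM in AAV-TAU and 11.4 CPM in AAV-STOP (2.08, 1.50 to 2.90), and lowest in CA3-like neurons, with 12.9 CPM in AAV-TAU and 13.1 CPM in AAV-STOP (0.986, 0.738 to 1.32). Rpl34 was highest in oligodendrocyte precursor-like nuclei (1.99, 1.42 to 2.81) and Rpl31 in inhibitory neuron-like nuclei (1.82, 1.42 to 2.35). In CA3-like neurons Rpl32 was highest, with 18.7 CPM in AAV-TAU and 10.5 CPM in AAV-STOP (1.78, 1.34 to 2.37), and in immature neuron-like nuclei Rps3a1, with 110.3 CPM in AAV-TAU and 62.9 CPM in AAV-STOP (1.75, 1.34 to 2.31). Rpl37 was highest in CA1-like neurons, with 35.7 CPM in AAV-TAU and 22.5 CPM in AAV-STOP, and lowest in subicular or cortical excitatory-like neurons, with 26.4 CPM in both libraries. The same gene could thus stand at opposite ends in 2 classes, as Rpl35 and Rpl37 did. These members were picked for their place at the ends of a list, so their distance from the family is a description only.

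Several members have a paralog, and the ratio within a pair compares libraries without regard to scaling. Rpl7l1, a relative of Rpl7 found in precursors of the large subunit (chromosome 17, 46773907 to 46782672, minus strand), had 4201 UMIs to 4702 of Rpl7 in AAV-TAU, a ratio within the pair of 0.893 (interval 0.857 to 0.932), and 4055 UMIs to 3606 in AAV-STOP, a ratio of 1.12 (1.07 to 1.18). These intervals over all nuclei did not overlap, but a pair ratio over all nuclei also carries the make-up of the libraries. Within classes the intervals of the libraries overlapped except in inhibitory neuron-like nuclei. There the pair ratio was 0.906 in AAV-TAU (0.782 to 1.05) and 1.29 in AAV-STOP (1.096 to 1.53). The pair ratio was lower in AAV-TAU in every class except Cajal-Retzius-like and newly formed oligodendrocyte-like nuclei. Rpl7l1 itself had 44.0 CPM in AAV-TAU and 37.6 CPM in AAV-STOP (1.17, 1.12 to 1.22), and passed the fold in 0 of the 10 classes where it was measured. Rpl7 had 49.3 CPM in AAV-TAU and 33.4 CPM in AAV-STOP (1.47, 1.41 to 1.54).

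The pair also differed between classes. The ratio of Rpl7l1 to Rpl7 was 1.29 in AAV-TAU (interval 1.08 to 1.53) and 1.43 in AAV-STOP (1.17 to 1.75) in CA3-like neurons. In oligodendrocyte-like nuclei it was 0.426 in AAV-TAU (0.357 to 0.507) and 0.558 in AAV-STOP (0.449 to 0.693). CA3-like neurons thus had more of Rpl7l1 than of Rpl7, and oligodendrocyte-like nuclei less, in both libraries. Granule-like neurons stood between, at 1.01 in AAV-TAU (0.931 to 1.09) and 1.11 in AAV-STOP (1.02 to 1.20).

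Among the other pairs, the ratio of Rpl22l1 to Rpl22 was 0.688 in AAV-TAU (interval 0.656 to 0.723) and 0.644 in AAV-STOP (0.612 to 0.678). The X-linked Rpl36a and its autosomal relative Rpl36al were present in nearly equal numbers, at a ratio of Rpl36al to Rpl36a of 1.03 in AAV-TAU (0.966 to 1.098) and 0.965 in AAV-STOP (0.896 to 1.04). Rps27l, a relative of Rps27 known in human cells as induced by p53, stood at 0.312 of Rps27 in AAV-TAU (0.288 to 0.339) and 0.296 in AAV-STOP (0.270 to 0.324). The retrotransposed copy Rps27rt had 180 UMIs in AAV-TAU and 114 in AAV-STOP, 0.0738 of Rps27 in AAV-TAU (0.0631 to 0.0859) and 0.0559 in AAV-STOP (0.0459 to 0.0675). Rpl3l, known from striated muscle, had 51 UMIs in AAV-TAU and 67 in AAV-STOP, 0.00897 of Rpl3 in AAV-TAU (0.00667 to 0.0118) and 0.0150 in AAV-STOP (0.0116 to 0.0191), with intervals that overlapped. The X-linked Rps4x had 38.0 CPM in AAV-TAU and 27.2 CPM in AAV-STOP, and its relative Rps4l is not among the genes that the rule took. Rpl39, the partner of Rpl39l, had 17.2 CPM in AAV-TAU and 11.4 CPM in AAV-STOP. Rpl3 itself had 59.6 CPM in AAV-TAU and 41.3 CPM in AAV-STOP. Ribosomal protein genes have many near-identical copies in the genome, and how the counting treated reads that match several places is not given in the sources used here, so levels of single members are uncertain.

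The make-up of the family changed little from class to class. Over the 81 genes with 300 or more UMIs, the share of a gene in the summed ribosomal protein UMIs differed by a median of 1.45-fold between its highest and lowest class with both libraries pooled. It differed by less than 1.5-fold for 50 genes and by 2-fold or more for 4. Rps20, of the small subunit, varied most with the libraries pooled, from 0.796% in microglia-like nuclei to 1.99% in subicular or cortical excitatory-like neurons. The difference was present in each library: in the excitatory class the share was 1.87% in AAV-TAU (interval 1.62 to 2.14) and 2.18% in AAV-STOP (1.86 to 2.54), and in microglia-like nuclei 0.844% in AAV-TAU (0.667 to 1.05) and 0.646% in AAV-STOP (0.389 to 1.01).

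Rpl6, a large-subunit protein and the most counted member, made up 5.49% of ribosomal protein UMIs in CA3-like neurons of AAV-TAU (interval 5.17 to 5.82) and 5.81% in those of AAV-STOP (5.45 to 6.19). In Cajal-Retzius-like nuclei its share was 2.59% in AAV-TAU (1.99 to 3.30) and 2.96% in AAV-STOP (2.13 to 3.99). Rpl7l1 had a share of 1.57% in AAV-TAU and 1.61% in AAV-STOP in CA3-like neurons, and of 0.620% in AAV-TAU and 0.732% in AAV-STOP in oligodendrocyte-like nuclei. Rps26, which lines the exit of the message channel, and Rpl39, at the exit tunnel of the nascent chain, each had an extreme in the thin Cajal-Retzius-like class, where the intervals of a share were wide: the share of Rpl39 in Cajal-Retzius-like nuclei was 0.575% in AAV-TAU (0.315 to 0.963) and 0.939% in AAV-STOP (0.501 to 1.5997).

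**Figure D3:**
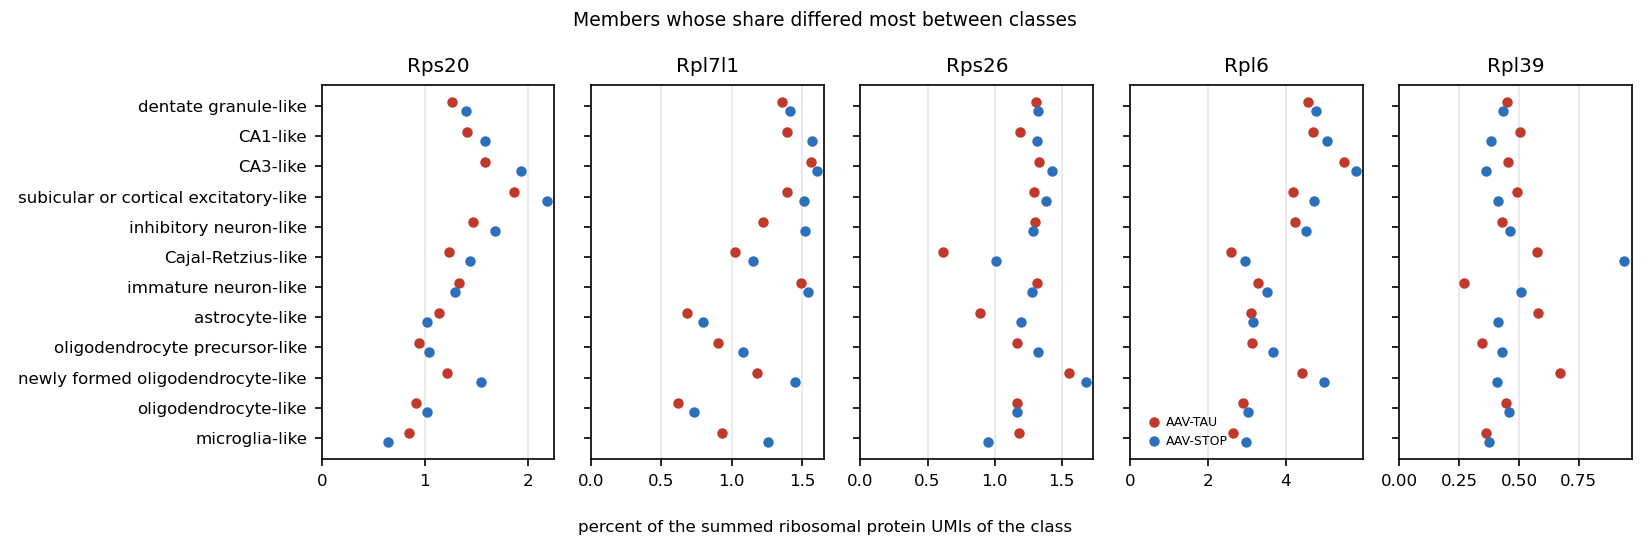
Share of 5 members in the summed ribosomal protein UMIs of each class, in percent, for AAV-TAU (red, above) and AAV-STOP (blue, below). Rps20, Rpl7l1 and Rpl6 make up larger shares in most neuronal classes than in oligodendrocyte-like and microglia-like nuclei in both libraries, while Rps26 is lowest and Rpl39 highest in Cajal-Retzius-like nuclei with the libraries pooled.

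Other genes of translation were read beside the family. The elongation factors, which carry the ribosome along the message, had 2 of 8 measured genes past the fold upward in granule-like neurons (median log2 ratio 0.29), 3 of 8 in CA1-like neurons (0.28) and 5 of 7 in oligodendrocyte-like nuclei (0.51). The initiation factors had 6 of 30 in granule-like neurons (0.22) and 12 of 30 in oligodendrocyte-like nuclei (0.23). Other messages with a terminal oligopyrimidine tract, such as Tpt1 and Rack1, had 3 of 13 in granule-like neurons (0.19) and 7 of 11 in oligodendrocyte-like nuclei (0.39). The medians of the ribosomal protein genes were 0.33 in granule-like, 0.34 in CA1-like and 0.50 in oligodendrocyte-like nuclei, and those of all measured genes 0.06, 0.06 and 0.05.

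The factors that build ribosomes and those that set their activity had lower medians. Of all measured genes, 4.21% were past the fold upward in granule-like, 4.64% in CA1-like and 13.5% in oligodendrocyte-like nuclei. Genes of ribosome assembly had 1 of 32 past the fold in granule-like neurons (median 0.11), near the share of all genes, and 6 of 27 in oligodendrocyte-like nuclei (0.22). The assembly list includes Rpl7l1, which is also counted in the family. Genes of translation control, among them mTOR, the S6 kinases and the 4E-binding proteins, had 0 of 17 in granule-like neurons (0.04), 0 of 16 in CA1-like neurons (0.05) and 1 of 15 in oligodendrocyte-like nuclei (0.04). Mitochondrial ribosomal proteins had 8 of 78 in granule-like neurons (0.18) and 24 of 72 in oligodendrocyte-like nuclei (0.21). None of the lists had a gene past the fold downward in these 3 classes.

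Outside translation, the nuclear-encoded respiratory chain had medians near those of the ribosomal proteins. It had 17 of 28 genes past the fold upward in granule-like neurons (median 0.38), 15 of 28 in CA1-like neurons (0.33), 20 of 27 in astrocyte-like nuclei (0.43), 21 of 28 in oligodendrocyte-like nuclei (0.51) and 13 of 24 in microglia-like nuclei (0.35). The medians of the ribosomal protein genes in the last 3 of these classes were 0.36, 0.50 and 0.40. The elongation factors were at 4 of 7 (0.36) in astrocyte-like and 3 of 5 (0.42) in microglia-like nuclei.

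**Figure D4:**
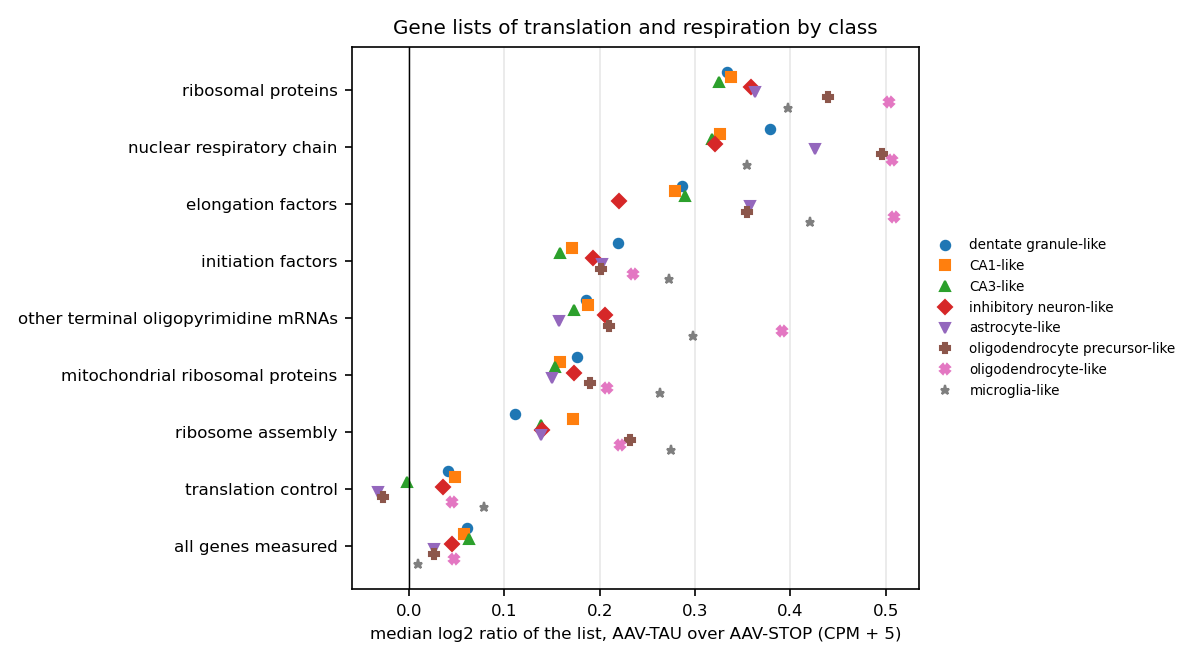
Median log2 ratio of AAV-TAU over AAV-STOP of each gene list (rows) in 8 classes (symbols), for lists with 5 or more measured genes. Ribosomal proteins and the nuclear respiratory chain have medians between 0.32 and 0.51, and translation control lies near the medians of all genes.

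Gene length moved with the ratio. Among measured genes outside the family, those shorter than 5 kilobases had a median log2 ratio of 0.13 in granule-like neurons (15.3% past the fold upward), 0.14 in CA1-like neurons (18.1%), 0.27 in astrocyte-like nuclei (41.5%), 0.26 in oligodendrocyte-like nuclei (41.4%) and 0.35 in microglia-like nuclei (52.3%). Genes of 100 kilobases or longer had medians of -0.02, -0.01, -0.07, -0.04 and -0.12 in the same classes. Ribosomal protein genes are short, and the family stood above the other short genes in each of these classes by its median, least so in microglia-like nuclei (0.40). In immature neuron-like nuclei the family was at 0.33 and the other short genes at 0.27. In Cajal-Retzius-like nuclei, with 2 measured members, the other short genes had the higher median, 0.53 against 0.41. The other short genes were not matched to the family for level. Within the family length made little difference: the median log2 ratio over all nuclei was 0.41 for the 34 measured genes under 3 kilobases, 0.41 for the 39 of 3 to 6 kilobases and 0.35 for the 10 longer ones. The part of gene length in the result was not tested.

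The mitochondrial share of a nucleus, a sign of attached or free cytoplasmic RNA, was higher in AAV-TAU in all 12 classes. Its median was 0.268% in AAV-TAU and 0.1703% in AAV-STOP granule-like neurons, and 0.428% in AAV-TAU and 0.292% in AAV-STOP oligodendrocyte-like nuclei. Ribosomal protein CPM was higher in nuclei with a higher mitochondrial share in both libraries. Among granule-like nuclei with under 0.1% mitochondrial UMIs it was 3372 CPM in AAV-TAU and 2602 CPM in AAV-STOP, a ratio of 1.30. With 0.4 to 0.8% it was 4236 CPM in AAV-TAU and 3687 CPM in AAV-STOP (1.15), and with 0.8% or more 5370 CPM in AAV-TAU and 5415 CPM in AAV-STOP (0.992).

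CA1-like neurons showed the same course, with 2563 CPM in AAV-TAU and 1959 CPM in AAV-STOP under 0.1% (ratio 1.31), and 4462 CPM in AAV-TAU and 5434 CPM in AAV-STOP at 0.8% or more (0.821), in a bin of 94 AAV-TAU and 51 AAV-STOP nuclei. In oligodendrocyte-like nuclei the ratio stayed between 1.38 and 1.43 in all 5 bins. Over the 50 bins of the 12 classes that held 20 or more nuclei of each library, the ratio was above 1 in 47. The other 3 were the highest bins of granule-like, CA1-like and CA3-like neurons, and the CA3-like ratio there was 1.00. With nuclei of at most 0.2% only, the ratio over all nuclei was 1.34, against 1.37 with all. By bin, the ratio over all nuclei went from 1.34 under 0.1% to 1.06 at 0.8% or more. In inhibitory neuron-like nuclei it went from 1.34 to 1.08 over the same bins. From under 0.1% to 0.4 to 0.8% it went from 1.57 to 1.18 in microglia-like and from 1.34 to 1.39 in precursor-like nuclei. The part of the mitochondrial share in the result was not tested.

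**Figure D5:**
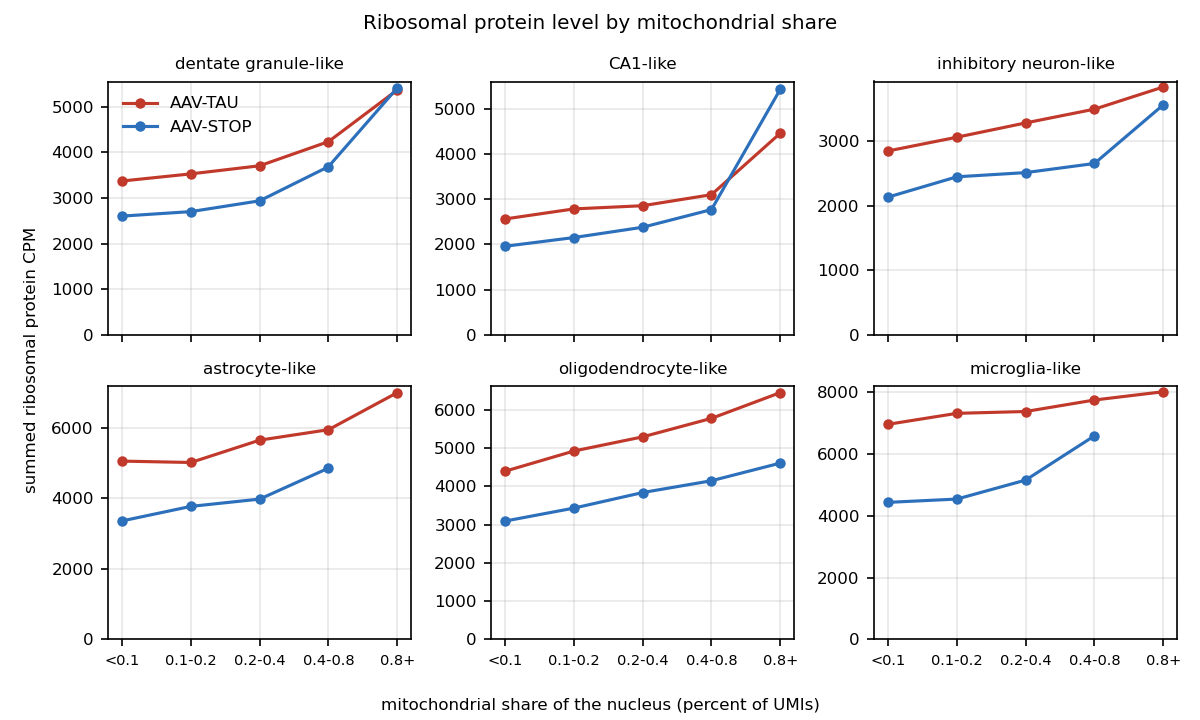
Summed ribosomal protein CPM by the mitochondrial share of the nucleus in 6 classes, for AAV-TAU (red) and AAV-STOP (blue), in bins of 20 or more nuclei. AAV-TAU lies above AAV-STOP in every bin shown except the highest of granule-like and CA1-like neurons.

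Depth and other signs also differed between the libraries. Within bins of UMIs per nucleus the ratio was above 1 in all 33 bins of a class with enough nuclei, between 1.07 and 1.44. Among granule-like nuclei with 3000 to 5000 UMIs it was 4256 CPM in AAV-TAU and 3279 CPM in AAV-STOP (1.30). The nuclear RNA Malat1 was lower in AAV-TAU in all 12 classes, for example 78722 CPM in AAV-TAU and 83253 CPM in AAV-STOP granule-like neurons. Summed markers of the other cell types were 5642 CPM in AAV-TAU and 5686 CPM in AAV-STOP in granule-like neurons (109 of 169 markers higher in AAV-TAU). In oligodendrocyte-like nuclei, without the list of newly formed oligodendrocytes, they were 7663 CPM in AAV-TAU and 8389 CPM in AAV-STOP (93 of 160). The sums did not hold for every list: markers of choroid plexus or ependymal cells were at 267 CPM in AAV-TAU and 136 CPM in AAV-STOP in oligodendrocyte-like nuclei (9 of 10 higher), and at 284 CPM in AAV-TAU and 103 CPM in AAV-STOP in their precursors (10 of 10), the classes with the highest ribosomal protein ratios. In newly formed oligodendrocyte-like nuclei these markers were at 170 CPM in AAV-TAU and 89.7 CPM in AAV-STOP. In astrocyte-like nuclei these markers were at 205 CPM in AAV-TAU and 422 CPM in AAV-STOP. In microglia-like nuclei, also high in the ribosomal protein ratio, they were at 203 CPM in AAV-TAU and 702 CPM in AAV-STOP. In microglia-like nuclei the markers of the other types, without the border macrophage list, were 7397 CPM in AAV-TAU and 8656 CPM in AAV-STOP (65 of 159). Their part in the result was not tested, and with 1 library per group the virus, the pool of mice and the library cannot be told apart.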

How the data were processed

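Nuclei of 2 libraries, AAV-TAU and AAV-STOP, each a pool of 3 mice, were analysed from the deposited UMI count matrices, whose values are whole raw counts per gene and nucleus. Per the submitters' processing notes, Cell Ranger 4.0 and Seurat 4.4.0 were used with mm10, while the file headers name Cell Ranger 8.0.1. How reads that match several places were counted is not given in the sources used here. Another vector named in the series was not analysed here.

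Barcodes below 500 UMIs or 300 genes, or over 5% mitochondrial, were dropped, and doublets were marked from simulated pairs at an expected rate of 0.15. No barcode of either library fell below the UMI or gene floor. With scanpy 1.11.5, 3000 variable genes, 30 components, 15 neighbours and Leiden resolution 1 were used. A cluster was named "like" a type from marker lists when the mean log2 enrichment of its markers was at least 1.6, led the next type by 0.5 and 3 or more markers were raised over 2-fold at 10 CPM or more. It stayed unnamed with under 50 nuclei, or when another type had more markers among its 10 leading genes. Low depth without a leading marker of its type also left it unnamed. Glial, vascular, fibroblast and choroid types further needed Rbfox3, a neuronal gene, at no more than 50% of the neuronal median. These thresholds were set after the data had been seen, and the ribosomal protein genes and all lists were chosen with earlier results of these data known.

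UMIs were summed per class and library and scaled to CPM of the class total. Ratios have conditional binomial intervals, levels have Poisson intervals and shares have Clopper-Pearson intervals. Log2 ratios use a pseudocount of 5 CPM and a floor of 100 UMIs. Named genes were the paralog pairs, the stalk proteins, Rpsa, Rps27a, Rps6 and the 5 highest and 5 lowest of each class, from which the text gives examples, and the genes whose share varied most. Some of the genes this rule takes are not reported here. Ribosomal protein genes with a share needed 300 UMIs. The counting was tested on simulated data. Alternatives in scaling, pseudocount, floors, fold, doublets, depth, mitochondrial share and resolution were tried.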

Additional observations from a re-analysis of the deposited data

Results flagged for a closer look

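The comparisons above use named classes, and 13 further clusters with 100 or more nuclei in each library stayed without a name. In all 13 the summed ribosomal protein level was higher in AAV-TAU. The highest level of any cluster was in cluster 15, with 12069 CPM in AAV-TAU (593 nuclei) and 8950 CPM in AAV-STOP (147 nuclei), a ratio of 1.35. Its nuclei were shallow, with a median of 1792 UMIs in AAV-TAU and 2654 in AAV-STOP, and counted per nucleus the order of the libraries turned round, to 25.5 UMIs in AAV-TAU and 27.0 in AAV-STOP. Cluster 23, whose highest marker means were endothelial (log2 5.03) and fibroblast (4.96), had 8323 CPM in AAV-TAU and 5859 CPM in AAV-STOP (1.42).

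The highest ratio was 1.56 in cluster 10, with 3123 CPM in AAV-TAU and 2003 CPM in AAV-STOP, followed by 1.43 in cluster 12, with 3588 CPM in AAV-TAU and 2502 CPM in AAV-STOP. Cluster 28 had 3416 CPM in AAV-TAU and 2509 CPM in AAV-STOP (1.36), cluster 24 had 2717 CPM in AAV-TAU and 2055 CPM in AAV-STOP (1.32), and cluster 25 had 2609 CPM in AAV-TAU and 1986 CPM in AAV-STOP (1.31). Cluster 32 had 2919 CPM in AAV-TAU and 2246 CPM in AAV-STOP (1.30), and cluster 20 had 2968 CPM in AAV-TAU and 2295 CPM in AAV-STOP (1.29). Cluster 16 had 2506 CPM in AAV-TAU and 1968 CPM in AAV-STOP (1.27), cluster 14 had 2999.9 CPM in AAV-TAU and 2381 CPM in AAV-STOP (1.26), and cluster 21 had 2670 CPM in AAV-TAU and 2143 CPM in AAV-STOP (1.246). The lowest ratio was 1.20 in cluster 26, with 2494 CPM in AAV-TAU and 2084 CPM in AAV-STOP. None of these differences has a replicate check.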

How the results depend on the processing

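The summed ratio was above 1 in every class and under every alternative that gave a value. Over all nuclei its log2 value of 0.46 moved to 0.36 with median-of-ratios scaling, 0.55 as a mean over nuclei, 0.45 with doublets kept, 0.39 with nuclei of 2000 or more UMIs and 0.42 with nuclei up to 0.2% mitochondrial. Median-of-ratios scaling, which shifted all genes by 0.10 log2 over all nuclei, left 43 genes past the fold over all nuclei, 25 in granule-like and 24 in CA3-like neurons. A 1.5-fold limit left 1 over all nuclei, 0 in granule-like, CA1-like and Cajal-Retzius-like, 1 in CA3-like and inhibitory neuron-like, 4 in immature neuron-like, 9 in subicular or cortical excitatory-like, 12 in astrocyte-like, 13 in oligodendrocyte precursor-like and microglia-like, and 18 in oligodendrocyte-like nuclei, where 0.185% to 4.66% of all genes passed. Up to 0.2% mitochondrial, 18 genes passed in subicular or cortical excitatory-like, 3 in immature neuron-like, 19 in astrocyte-like, 14 in precursor-like and 41 in oligodendrocyte-like nuclei, where fewer genes reached the floor. The mean over nuclei gave 2 in Cajal-Retzius-like nuclei. A floor of 20 UMIs gave 43 there and 41 in newly formed oligodendrocyte-like nuclei, and a floor of 1 UMI gave 46 and 41. These floors also put genes past the fold downward: 6 and 5 in these classes and 1 in immature neuron-like nuclei at 20 UMIs, and 7, 5 and 2 at 1 UMI. With 2000 or more UMIs per nucleus 8 passed in microglia-like nuclei. Resolution 0.5 gave 9 in newly formed oligodendrocyte-like nuclei, and resolution 2 gave 26 in microglia-like nuclei. Apart from the 1.5-fold limit, these counts stand without the share of all genes past the fold and are not set against it. The fold between the highest and lowest class, 2.87 in AAV-TAU and 2.69 in AAV-STOP, became 2.24 in AAV-TAU and 2.30 in AAV-STOP up to 0.2% mitochondrial, 2.55 in AAV-TAU and 2.43 in AAV-STOP at resolution 0.5, and 2.56 in AAV-TAU at resolution 2. No CA3-like class formed at resolution 0.5 or 2, and 3 classes had too few nuclei up to 0.2% mitochondrial. Other than the smaller sets of genes or nuclei, the cause was not tested. No paired analysis was possible because each group has 1 library, and for the same reason no replicate could be left out.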
